A study of Schizosaccharomyces pombe with 9 samples.

Results

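The transcriptome of fission yeast (Schizosaccharomyces pombe) carrying the tra1 allele tra1-AA was compared directly with that of yeast lacking tra1 (tra1D), to ask how far the allele equals loss of the gene. The comparison used 6 of the 9 libraries in the series, 3 of each mutant, chosen by the genotype in the sample labels, and the other 3 libraries, of wild type (WT), served as reference. It covered every gene in the table that passed a filter on low counts, 4913 of 5129 genes. Only 2 of these genes were called different between the mutants. They were tra1 itself, read in tra1-AA and almost absent in tra1D, and its neighbour ubc7, which was 2.75-fold higher in tra1D.

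Tra1 is the largest subunit of SAGA, a co-activator complex that acetylates and deubiquitinates histones and helps to place the TATA-binding protein at promoters. It belongs to the phosphatidylinositol 3-kinase-related kinases (PIKKs), but it is a pseudokinase without catalytic activity, and it offers the surface to which DNA-bound activators dock. In fission yeast SAGA contains Tra1 and the acetyltransferase complex NuA4 contains its paralog Tra2, so cells can live without Tra1. PIKK proteins are folded with the help of the chaperone Hsp90 and its cochaperone TTT (Tel2, Tti1 and Tti2).

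All strains were grown to mid-logarithmic phase in the rich medium YES, and each genotype is represented by a single strain number. WT carries neither change, tra1D a deletion of tra1, and tra1-AA an allele of which the labels give only the name. The labels number 3 replicates per genotype without saying that they were separate cultures, so each p-value speaks only of the spread among the samples at hand, which may be technical. A mark of re-analysis stands in the sample titles of WT and tra1D and is missing from those of tra1-AA. This mark and the genotype cannot be told apart between tra1-AA and tra1D. Poly(A) RNA was sequenced from stranded libraries, and the libraries of the mutants held 5738138 to 7295107 counts. Levels are given as CPM, in which the counts of each library are scaled to the same total, and 1 count was worth 0.129 to 0.168 CPM in the mutants. Differences are given as log2 fold changes of tra1-AA over tra1D from an edgeR quasi-likelihood fit, so that a negative value means a lower level in tra1-AA. A gene was called at a Benjamini-Hochberg (BH) adjusted p under 0.05 over all 4913 genes.

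The tra1 transcript itself separated the mutants. tra1D had 5, 2 and 2 counts on tra1, against 608, 570 and 470 in tra1-AA and 771, 704 and 561 in WT. The level was 0.440 ± 0.251 CPM (SD, n = 3) in tra1D, close to the 3-count floor of a library, and 79.1 ± 8.22 CPM in tra1-AA. The summed counts of tra1-AA were 181 times those of tra1D after scaling (exact 95% counting interval 95.2 to 397, which covers counting error only), and the fitted log2 fold change was 7.44 (SE 0.20, edgeR, BH-adjusted p = 7.68e-10). In the counts of tra1 the allele therefore stood near WT, at 94.1 ± 4.55 CPM, rather than with the deletion. All 3 tra1-AA libraries still lay below all 3 WT libraries, at 70.7 to 87.1 against 88.9 to 97.3 CPM. The log2 fold change of tra1-AA against WT was -0.25 and was not called (edgeR, BH-adjusted p = 0.0998). It was not called under 15 of 16 alternatives either, the exception being the fit without tra1-AA replicate 1. Counts per gene do not read the change within the allele, nor the amount of protein.

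The genes on both sides of tra1 differed as well. ubc7, the next gene on the 5′ side of tra1, encodes a ubiquitin-conjugating enzyme of the endoplasmic reticulum degradation pathway. It was read at 224, 217 and 199 CPM in tra1D, at 71.7, 82.9 and 78.0 CPM in tra1-AA and at 58.6, 66.3 and 58.0 CPM in WT. All 3 tra1D libraries lay above all others. The log2 fold change of tra1-AA over tra1D was -1.46 (SE 0.08, 95% interval -1.63 to -1.29, edgeR, BH-adjusted p = 1.10e-06). Against WT, ubc7 rose by 1.81 on the log2 scale in tra1D and by 0.35 in tra1-AA. The second of these calls (edgeR, BH-adjusted p = 0.0160) was lost without WT replicate 1 and without tra1-AA replicate 2, where the highest adjusted p was 0.0854.

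mcs2, the next gene on the 3′ side, encodes the cyclin of the general transcription factor TFIIH. It was read at 4.36, 5.57 and 5.70 CPM in tra1D, at 15.9, 10.1 and 15.2 CPM in tra1-AA and at 18.8, 19.8 and 27.1 CPM in WT. The ranges of the 3 groups did not overlap, and the tra1-AA libraries lay between the other two groups. The log2 fold change of tra1-AA over tra1D was 1.39 (SE 0.24, 95% interval 0.87 to 1.91). It did not pass the threshold in edgeR (BH-adjusted p = 0.141) and passed it in DESeq2 (adjusted p = 4.38e-05), the lowest value of its alternatives, which reached 0.764. Against WT, mcs2 fell by 2.06 on the log2 scale in tra1D (edgeR, BH-adjusted p = 0.000145). In tra1-AA the log2 fold change against WT was -0.67 (BH-adjusted p = 0.0433), a call that was lost under 9 of 16 alternatives.

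The 8 other genes among the 5 neighbours on either side stood close to each other in both mutants. Their log2 fold changes of tra1-AA over tra1D ran from -0.26 for nop8 to 0.09 for sul1, none was called, and the 95% interval of each lay within 2-fold. nop8, a ribosome biogenesis factor, was read at 91.8, 97.1 and 96.7 CPM in tra1D and at 82.6, 78.6 and 77.6 CPM in tra1-AA, 2 ranges that did not overlap. Over all 4913 tested genes the ranges of the mutants did not overlap for 445 (9.06%). This share belongs beside each such statement below. The next gene beyond ubc7, yar1, was read at 67.9 to 70.9 CPM in tra1D and at 64.6 to 75.8 CPM in tra1-AA. The difference was thus called for 1 immediate neighbour of tra1, with a non-overlapping but uncalled one on the other side, and for none of the genes farther out.

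**Figure D1:**
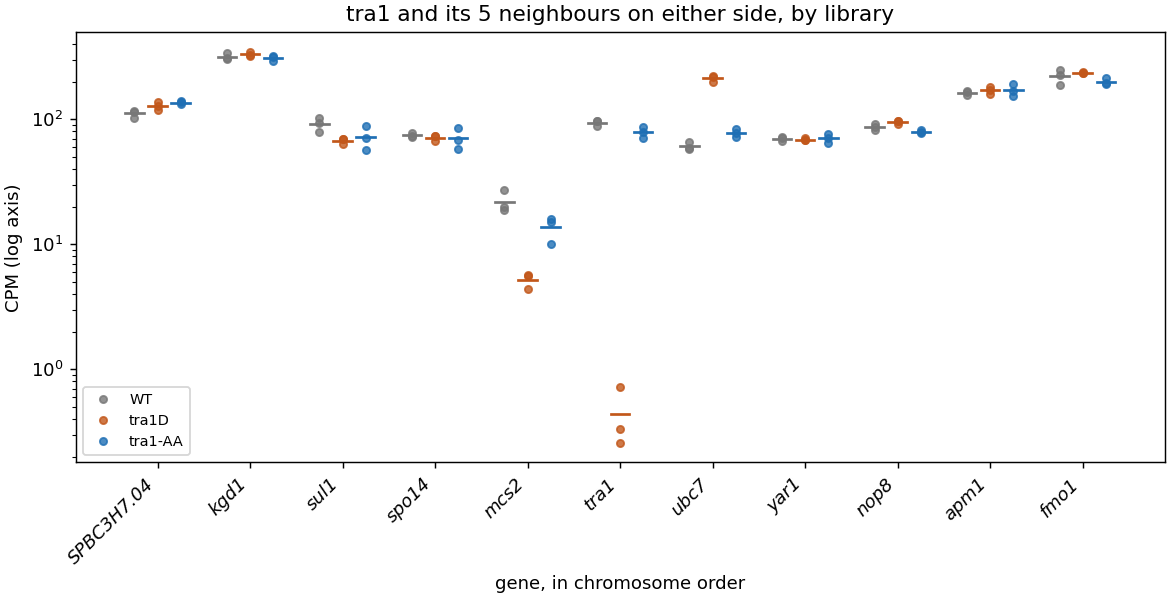
CPM (log axis) of tra1 and the 5 genes on either side of it, in chromosome order, with 1 point per library and a line at the mean of each genotype. tra1 is near 0 in tra1D only, ubc7 is high in tra1D at 199 to 224 CPM, and mcs2 is lowest in tra1D at 4.36 to 5.70 CPM.

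Across the transcriptome few genes separated the mutants. Beyond tra1 (the 1 gene higher in tra1-AA, 0.0204%) and ubc7 (the 1 gene lower, 0.0204%), no gene was called, so that 2 of 4913 genes (0.0407%) passed the edgeR test. At an unadjusted p under 0.05 there were 187 genes (3.81%), 92 of them higher (1.87%) and 95 lower (1.93%) in tra1-AA. DESeq2 called 4 genes, the additions being mcs2 and SPBC530.07c. edgeR called 566 genes (11.5%) in tra1D against WT and 781 (15.9%) in tra1-AA against WT, with WT shared by both. On simulated counts of 4905 genes, 200 of which were given known changes, this comparison recovered 85.1% of changes of 1.5-fold and 98.5% of changes of 2-fold. The BH threshold is less strict where many genes change, and only 2 genes were called here. These shares therefore do not give the recovery in the real data. There mcs2, 2.63-fold higher in tra1-AA by estimate, missed the edgeR threshold.

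The size of the differences gave the same picture as the calls. The median absolute log2 fold change was 0.07 between the mutants, 0.13 in tra1D against WT and 0.14 in tra1-AA against WT, with a median SE of 0.098 in each comparison. The 95th percentile of the absolute log2 fold change was 0.29 between the mutants, 0.64 in tra1D against WT and 0.65 in tra1-AA against WT. By estimate, 4854 genes (98.8%) lay within 1.5-fold, and 19 (0.387%) differed at least 2-fold between the mutants, against 114 between tra1D and WT and 109 between tra1-AA and WT.

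Single libraries were compared in pairs. The median absolute log2 difference between a tra1D and a tra1-AA library was 0.101 to 0.146 over the 9 pairs. Between replicates it was 0.108 to 0.126 within tra1D and 0.104 to 0.165 within tra1-AA. A mutant library was thus about as far from a library of the other mutant as from its own replicates. From WT libraries, tra1D libraries stood at 0.150 to 0.181 and tra1-AA libraries at 0.164 to 0.199, above all 9 pairs of a tra1D with a tra1-AA library. The most distant replicates, at 0.165 within tra1-AA and 0.155 within WT, reached into these ranges. A principal component analysis of the 6 mutant libraries still placed the genotypes apart on its first component (30.9% of variance), with tra1D at -10.3 to -3.46 and tra1-AA at 3.05 to 11.03.

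**Figure D2:**
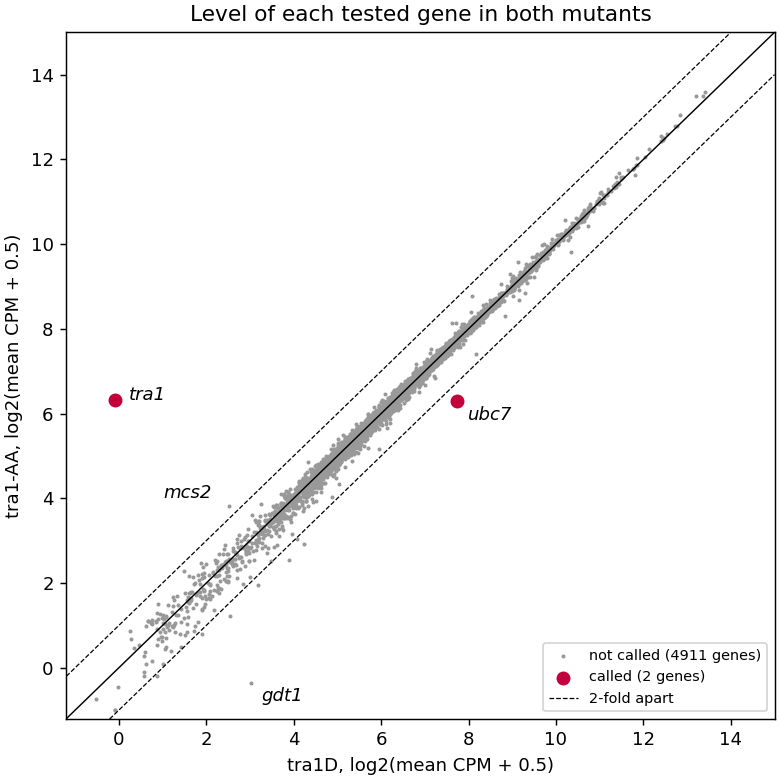
Mean level of each of the 4913 tested genes in tra1D (x axis) and tra1-AA (y axis), both as log2(mean CPM + 0.5), with called genes in red and dashed lines 2-fold from equality. Nearly all genes lie along the diagonal. The called genes tra1 and ubc7 stand off it, as do mcs2 and gdt1, which were not called.

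A p that misses the threshold does not show that levels are equal, so the 95% interval of each log2 fold change was read against a fixed margin. The intervals are for single genes and were not adjusted over genes. For 4745 genes (96.6%) the whole interval lay within 2-fold, and for 4403 (89.6%) within 1.5-fold. For 168 genes (3.42%) it did not lie within 2-fold, and for 3 of these (tra1, ubc7 and gdt1, 0.0611% of all) it lay wholly beyond 2-fold. For gdt1, which was not called, this rested on 1 library. tra1D held 148, 3 and 5 counts, and the log2 fold change of -4.64 became -0.98 without tra1D replicate 1. The median interval reached 1.16-fold to either side of its estimate. The 2-fold margin is wide beside the changes against WT. There only 114 genes in tra1D and 109 in tra1-AA differed at least 2-fold by estimate. A share of genes within the margin, here or in the lists below, therefore does not by itself set the mutants apart from WT.

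How closely equality could be stated depended on the level of the gene. Among genes with a mean of at least 100 CPM in the mutants, 99.4% had an interval within 2-fold and 97.5% within 1.5-fold. Between 20 and 100 CPM the shares were 99.6% and 96.4%, and between 5 and 20 CPM they were 91.5% and 50.6%. Below 5 CPM, 37.2% of 180 genes had an interval within 2-fold and 1.11% within 1.5-fold, so that for most of them the difference could not be bounded within 2-fold at this depth. Of the 168 genes with wider intervals, 135 had a mean under 10 CPM, and 12 had a mean of at least 100 CPM.

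**Figure D3:**
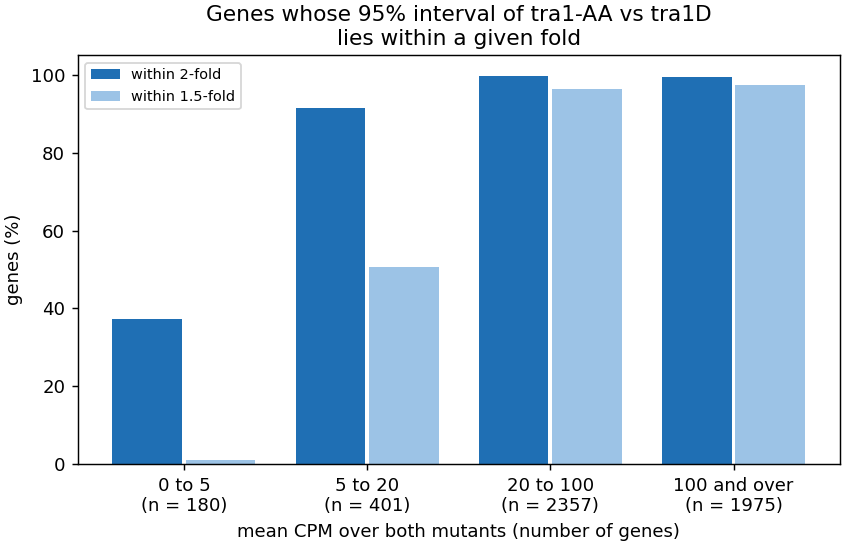
Percentage of genes whose 95% interval of tra1-AA over tra1D lies within 2-fold (dark) or 1.5-fold (light), by mean CPM over both mutants. Within 2-fold the share rises from 37.2% below 5 CPM to 99.4% at 100 CPM and over.

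The 12 highly read genes with a wide interval, apart from ubc7, were genes that varied between replicates or had a sizeable uncalled difference. urg1, a uracil-regulated gene, was read at 3831, 3544 and 3392 CPM in tra1D and at 3376, 4143 and 1971 CPM in tra1-AA, and from 181 to 2799 CPM in WT. gpd3, a glyceraldehyde 3-phosphate dehydrogenase of glycolysis, was read at 1113 to 1523 CPM in tra1D and at 741 to 1004 CPM in tra1-AA. The others were urg2, SPAC521.03, isp4, ctr4, uck2, ctr5, hsp9, isp5 and put4. Among these are the copper transporter subunits ctr4 and ctr5, whose log2 fold changes of 0.69 and 0.52 were the highest positive ones of the 12, and the amino acid and peptide transporters isp5, put4 and isp4, at -0.30, -0.34 and -0.48.

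The genes that moved most against WT were then read side by side in both mutants. WT is shared by both comparisons, so their likeness is a description and no test. ght5, a high-affinity glucose transporter that is repressed when glucose is plentiful, was read at 28.2 to 125 CPM in WT, at 1639, 1952 and 1634 CPM in tra1D and at 2056, 2346 and 1534 CPM in tra1-AA. It rose by 4.39 on the log2 scale in tra1D and by 4.58 in tra1-AA, and the mutants' ranges overlapped. The log2 fold change between the mutants was 0.18 (95% interval -0.58 to 0.94), within 2-fold.

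Other genes of sugar use were read in the same way. gal10, of the galactose cluster, was read at 20.8, 20.1 and 32.0 CPM in tra1D, at 16.5, 19.7 and 15.6 CPM in tra1-AA and at 3.68 to 4.44 CPM in WT. Its ranges in the mutants lay next to each other without overlap, with a log2 fold change of -0.48 (95% interval -0.89 to -0.07) that was not called. gal7, in the same cluster, was read at 68.6 to 74.6 CPM in tra1D and at 65.2 to 84.2 CPM in tra1-AA, with a log2 fold change of 0.05. gal1, the galactokinase gene of the cluster, was read at 24.7, 22.1 and 30.7 CPM in tra1D, at 16.5, 22.1 and 21.8 CPM in tra1-AA and at 13.3 to 18.6 CPM in WT. The ranges of the mutants lay next to each other without overlap, and the log2 fold change of -0.35 (95% interval -0.74 to 0.03) was not called. Against WT, gal1 stood at 0.75 in tra1D (edgeR, BH-adjusted p = 0.0207), a call lost without WT replicate 1, WT replicate 3 or tra1D replicate 3, and at 0.40 in tra1-AA, which was not called (BH-adjusted p = 0.169). inv1, the secreted invertase, was read at 7.54 to 17.9 CPM in tra1D and at 9.47 to 16.5 CPM in tra1-AA, and at 3.16 to 3.96 CPM in WT. gcd1, annotated as a glucose-6-phosphate dehydrogenase, was read at 22.2 to 38.6 CPM in tra1D and at 15.9 to 35.1 CPM in tra1-AA.

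The remaining large rises covered several functions. The phosphate transporter gene pho842 rose by 2.14 on the log2 scale in tra1D and by 2.35 in tra1-AA, and the aldehyde dehydrogenase gene atd1 by 1.89 and 2.33. The metallothionein gene zym1, which encodes a zinc-binding protein, was read at 65.5, 73.8 and 78.8 CPM in tra1D and at 46.1, 60.5 and 56.2 CPM in tra1-AA, against 13.5 to 22.0 CPM in WT. Its ranges in the mutants did not overlap, and its log2 fold change between them was -0.42 (edgeR, BH-adjusted p = 0.999). SPAC15E1.02c stood likewise at -0.53, while SPAC27D7.11c, gnr1 and SPCC569.03 lay between 0.03 and 0.12.

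Among the falls, cnp3, which encodes the fission yeast CENP-C protein of the inner kinetochore, was read at 273 to 304 CPM in WT, at 45.6, 41.0 and 61.4 CPM in tra1D and at 42.7, 44.3 and 42.8 CPM in tra1-AA. It fell by 2.53 on the log2 scale in tra1D and by 2.71 in tra1-AA, and the mutants differed by -0.18 (95% interval -0.45 to 0.09). abp2, which encodes a protein that binds replication origins, was read at 37.6 to 42.6 CPM in tra1D and at 27.1 to 30.5 CPM in tra1-AA, against 101 to 138 CPM in WT. Both fell in both mutants, and for abp2 the mutants' ranges did not overlap, with a log2 fold change of -0.45 that was not called. SPAPB24D3.07c was read at 46.1 to 86.0 CPM in tra1D and at 48.9 to 81.5 CPM in tra1-AA, against 329 to 649 CPM in WT. str1, a siderophore transporter gene of iron uptake, was read at 12.4 to 28.8 CPM in tra1D and at 18.0 to 39.4 CPM in tra1-AA, and varied from 51.0 to 238 CPM in WT. The mutants were less alike in nrg1, SPAPJ695.02 and SPBC23G7.10c, at log2 fold changes of -1.30, -1.08 and -0.54. Their ranges in the mutants did not overlap, as for 9.06% of all genes. None was called, and none had an interval within 2-fold. nrg1 was read at 6.54, 5.18 and 14.25 CPM in tra1D and at 4.73, 4.05 and 1.35 CPM in tra1-AA.

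**Figure D4:**
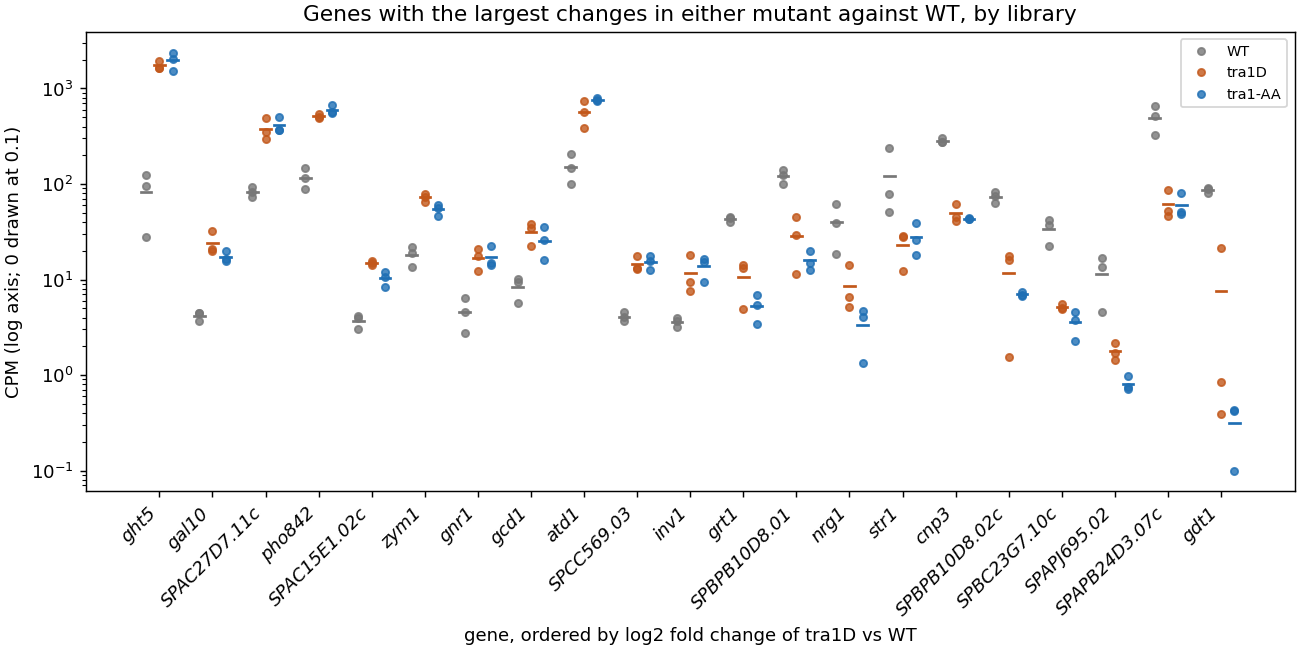
CPM (log axis, a value of 0 drawn at 0.1) in each library for the genes with the largest called changes of either mutant against WT, tra1 left out, with a line at each mean. For ght5, pho842 and cnp3 the points of the 2 mutants lie together and away from WT, and for gdt1 tra1D replicate 1 lies far above the other mutant libraries.

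In all, 97 genes (1.97%) were called and changed at least 2-fold in tra1D against WT. The interval of tra1-AA over tra1D lay within 2-fold for 58 of them (59.8%), and 2 (tra1 and ubc7) were called between the mutants. The set drawn in the same way from tra1-AA against WT held 98 genes (1.99%), of which 60 (61.2%) had an interval within 2-fold and 0 were called between the mutants by edgeR. At an unadjusted p under 0.05 there were 22 genes in the first set and 19 in the second. Over all tested genes, 96.6% had an interval within 2-fold and 3.81% an unadjusted p under 0.05. The median log2 fold change between the mutants was -0.18 in the first set and -0.26 in the second, against 0.01 over all tested genes. These medians join rises and falls. In the first set the median was -0.32 for the 30 rises and -0.18 for the 67 falls. In the second it was 0.07 for the 23 rises and -0.33 for the 75 falls. By estimate, all 97 and all 98 genes lay on the same side of WT in the other mutant, with WT shared by both comparisons. Both sets were chosen in libraries that the comparison between the mutants also uses, so these values are descriptions.

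The genes for the partners of Tra1 were read at like levels in both mutants. Of the 18 other SAGA subunit genes tested, 0 were called by edgeR, all 18 had an interval within 2-fold, and 1 was higher and 1 lower in tra1-AA at an unadjusted p under 0.05, against 1.87% and 1.93% of all genes. The acetyltransferase gene gcn5 stood at 0.00 on the log2 scale, the scaffold genes spt20 and spt7 at 0.15 and 0.07, and the TATA-binding protein module genes spt3 and spt8 at 0.07 and -0.01. In the deubiquitination module, the protease gene ubp8 stood at -0.05, and sgf11 and sus1 held the extremes of the list. sgf11 was read at 39.7, 43.0 and 44.1 CPM in tra1D and at 35.2, 35.4 and 30.7 CPM in tra1-AA, with non-overlapping ranges and a log2 fold change of -0.32 (95% interval -0.54 to -0.10, edgeR, BH-adjusted p = 0.999). sus1 stood at 0.26 (95% interval -0.05 to 0.57). Against the shared WT libraries, 2 of the 18 genes rose in tra1D (ada2 and sgf73), where 5.17% of all genes rose, and 6 rose in tra1-AA, where 7.94% did.

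Genes of NuA4 and of PIKK maturation, tra1 excepted, were within the same margin. All 12 NuA4 genes tested had an interval within 2-fold, with log2 fold changes from -0.04 for yaf9 to 0.29 for eaf7. The paralog tra2 had a mean of 124 CPM in tra1D, and in tra1-AA its mean was 123 CPM, a log2 fold change of -0.01 (95% interval -0.14 to 0.13). Among the 12 PIKK, TTT and R2TP genes, tra1 was the only one called and the only one whose interval left the 2-fold margin. The kinase genes tor1, tor2, rad3 and tel1 stood between -0.05 and 0.15, and the TTT genes tel2, tti1 and tti2 between -0.10 and 0.11. The latter were read at 14.6 to 41.2 CPM in tra1-AA.

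None of the other gene lists held a gene that edgeR called between the mutants. In the lists of growth, all 131 ribosomal protein genes, all 51 ribosome biogenesis genes, all 33 proteasome genes and all 34 nuclear genes of the respiratory chain had an interval within 2-fold. Their median log2 fold changes were 0.03, 0.03, 0.03 and -0.02. The same held for all 29 genes of mitosis and cell separation, all 28 centromere and kinetochore genes and all 56 genes of amino acid biosynthesis. Within the ribosomal proteins, rpl102 was read at 771, 470 and 645 CPM in tra1D and at 452, 460 and 459 CPM in tra1-AA. tra1D replicate 2 stood with the tra1-AA libraries there, and the log2 fold change of -0.46 was called only without that library (-0.63, edgeR, BH-adjusted p = 0.0328, in a range of 0.0328 to 1 over its alternatives).

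Lists of nutrient use and stress were wider. Of the 8 hexose transporter genes tested, 5 had an interval within 2-fold, and ght3, ght6 and ght7, all under 3 CPM in the mutants, did not. Of the 27 genes of the core environmental stress response, 25 lay within 2-fold, and 2 were lower in tra1-AA at an unadjusted p under 0.05, where the share over all genes was 1.93%. hsp9, a small heat shock protein gene of that response, was read at 238, 257 and 367 CPM in tra1D and at 123, 148 and 233 CPM in tra1-AA, against 75.7, 80.6 and 104 CPM in WT. The ranges of the mutants met without overlap, and tra1-AA lay between WT and tra1D. Its log2 fold change of -0.77 (SE 0.22, 95% interval -1.25 to -0.30) was not called (edgeR, BH-adjusted p = 0.999).

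Genes of sexual differentiation, by which starved fission yeast mate and enter meiosis, held more members with a low unadjusted p than any other list drawn up by function. All 27 were tested, 23 had an interval within 2-fold, and 7 were lower in tra1-AA at an unadjusted p under 0.05 against none higher, where the shares over all genes were 1.93% lower and 1.87% higher. None passed the edgeR test. ste11, which encodes the master transcription factor of mating, was read at 50.8, 44.5 and 57.8 CPM in tra1D and at 38.8, 44.3 and 41.9 CPM in tra1-AA, against 20.6 to 27.2 CPM in WT. mei2, the RNA-binding switch of meiosis, was read at 48.7, 58.3 and 77.1 CPM in tra1D and at 30.1, 45.3 and 29.9 CPM in tra1-AA, against 14.9 to 39.4 CPM in WT. In both genes the ranges of the mutants did not overlap, with tra1D higher, and ranges did not overlap for 9.06% of all genes. For ste11 they lay close, with 44.5 CPM the lowest in tra1D and 44.3 CPM the highest in tra1-AA. spk1, the MAP kinase of the pheromone response, stood at -0.70 and ste6, an activator of Ras, at -0.84 on the log2 scale. The others of the 7 were the pathway adaptor gene ste4 at -0.38, the formin gene fus1 at -0.35 and the G-protein regulator gene rgs1 at -0.35.

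The median over the sexual differentiation list was -0.07, with 19 of 27 members below 0, against 0.01 over all tested genes. Markers of the M mating type were read beside them. The summed level of the 9 M-cell genes was 209, 274 and 295 CPM in the tra1D libraries, 237, 231 and 192 CPM in the tra1-AA libraries and 178 to 194 CPM in WT. Among them mat1-Mc had no count in either mutant or in WT. A silent cassette shares its sequence, so that its counts are uncertain. The summed level of the 5 P-cell genes was 610 to 639 CPM in tra1D, 588 to 632 CPM in tra1-AA and 622 to 722 CPM in WT. The mutants overlapped in both sums, but a sum does not show each member. Values below 0 were found for 6 of the 7 M-cell genes tested and all 5 P-cell genes, against 2330 of all 4913. They ran from -0.60 for mfm2 to 0.07 for sxa2 in the M-cell genes. In the P-cell genes they ran from -0.34 for map1 to -0.01 for map3, and none of either list was called. The part of the M-cell genes in the sexual differentiation values was not tested. In such bulk samples, fewer cells of a type and less RNA per cell cannot be told apart.

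**Figure D5:**
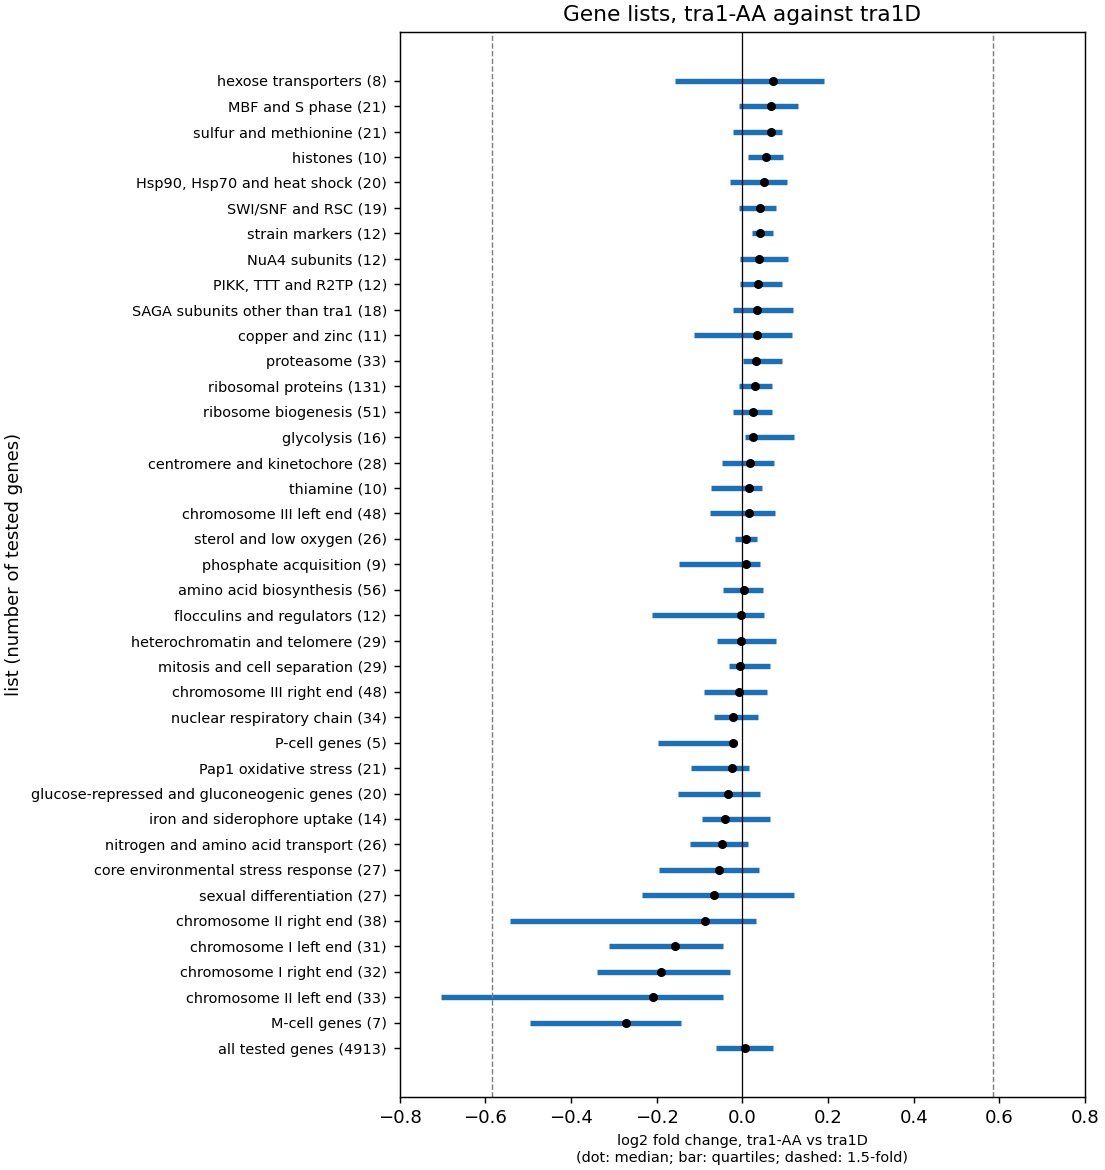
Log2 fold change of tra1-AA over tra1D in each list with at least 5 tested genes, as the median (dot) and quartiles (bar), with the number of tested genes in parentheses and dashed lines at 1.5-fold. Medians lie between -0.27 (M-cell genes) and 0.07 (hexose transporters), and the lists of chromosome I and II ends lie on the lower side.

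Genes at the ends of the chromosomes, which in fission yeast carry heterochromatin, were more often below than above 0 in tra1-AA over tra1D. Of the 50 outermost genes at each of 6 ends, 300 in all, 230 were tested. The log2 fold change was below 0 for 146 of these 230, with a median of -0.06, and 181 (78.7%) had an interval within 2-fold, against 96.6% of all tested genes. At an unadjusted p under 0.05, 21 were lower in tra1-AA and 1 was higher, against 1.93% and 1.87% of all genes, and none passed the edgeR test. Against the shared WT libraries, 39 of the 230 fell in tra1D, where 6.35% of all genes fell, and 56 fell in tra1-AA, where 7.96% did. Values below 0 were found for 24 of 31 tested genes at the left end of chromosome I, 26 of 32 at its right end, 28 of 33 at the left end of chromosome II and 22 of 38 at its right end. At the ends of chromosome III they were found for 22 of 48 (left) and 24 of 48 (right), close to the share of all genes, in which 2330 of 4913 lay below 0. Many of these genes had few counts, and 49 of the 168 genes with a wide interval lay at chromosome ends.

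At the left end of chromosome II lay several of the genes with large falls against WT. SPBPB10D8.01, annotated as a cysteine transporter, was read at 45.6, 11.5 and 29.3 CPM in tra1D and at 15.04, 19.9 and 12.6 CPM in tra1-AA, against 99.9 to 139 CPM in WT. grt1, a transcription factor gene, was read at 14.1, 4.92 and 13.1 CPM in tra1D and at 5.44, 6.85 and 3.46 CPM in tra1-AA, against 40.1 to 44.7 CPM in WT. SPBPB10D8.02c, annotated as an arylsulfatase, was read at 17.7, 1.55 and 16.1 CPM in tra1D and at 6.87, 7.41 and 6.76 CPM in tra1-AA. In each of these genes tra1D replicate 2 stood among or below the tra1-AA libraries, while the other two tra1D libraries stood above them. The log2 fold changes were -0.85, -0.99 and -0.71, and none was called. Without tra1D replicate 2, SPBPB10D8.02c was called at -1.27 (edgeR, BH-adjusted p = 0.0247, in a range of 0.0247 to 1 over its alternatives), and so was the enolase gene eno102 of the same end, at -1.94 (BH-adjusted p = 0.0461, in a range of 0.0461 to 1) against -1.51 with all libraries.

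At the right end of chromosome I, 1 tra1D library stood apart. gdt1 (SPAC186.05c), annotated as a GDT1-like protein, had 148, 3 and 5 counts in tra1D, 3, 3 and 0 in tra1-AA and 723, 643 and 505 in WT. Nearly all of the tra1D counts came from replicate 1. The normalised ratio of summed counts, tra1D over tra1-AA, was 26.3 (exact 95% counting interval 11.8 to 72.7), which does not hold the spread between replicates. The fitted log2 fold change of -4.64 (SE 1.55) was not called (edgeR, BH-adjusted p = 0.999), and without tra1D replicate 1 it was -0.98. Its neighbours SPAC186.04c and SPAC186.06 had 9, 0 and 0 and 8, 0 and 1 counts in tra1D and no count in tra1-AA, against 19 to 27 and 14 to 31 in WT. In each of these 3 genes it was tra1D replicate 1 that held most of the mutant counts.

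pfl9, a gene for a flocculin-like cell surface glycoprotein in the same stretch, differed among the tra1-AA libraries instead. It had 103, 123 and 143 counts in tra1D and 19, 118 and 13 in tra1-AA, against 58 to 81 in WT. tra1-AA replicate 2 stood with tra1D, and the others lay far below. The log2 fold change was -1.34 with all libraries, not called, and -2.95 without tra1-AA replicate 2, where it was called (edgeR, BH-adjusted p = 0.00532, in a range of 0.00532 to 1 over its alternatives).

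The genes next in line by unadjusted p were chosen after their values were seen. SPBC530.07c, annotated as a TENA/THI family protein, was read at 50.6, 51.4 and 53.5 CPM in tra1D and at 33.7, 41.8 and 32.5 CPM in tra1-AA, against 54.4 to 60.5 CPM in WT. The ranges did not overlap, tra1D stood near WT, and the log2 fold change of -0.52 (95% interval -0.75 to -0.30) missed the threshold (edgeR, BH-adjusted p = 0.376). It was called by DESeq2 (adjusted p = 0.0255) and in edgeR without tra1-AA replicate 2 (BH-adjusted p = 0.0382), in a range of 0.0255 to 0.999 over its alternatives. SPBC1348.12, a transcription factor gene at the left end of chromosome II, was read at 5.57 to 7.26 CPM in tra1D and at 2.94 to 4.30 CPM in tra1-AA, a log2 fold change of -0.95 that was not called.

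Higher in tra1-AA by estimate, without being called, were elo2 (fatty acid elongation, log2 fold change 0.38), msi2 (mRNA cleavage, 0.30), SPCC320.03 (transcription factor, 0.29), psf3 (GINS replication complex, 0.28), caf16 (CCR4-Not complex, 0.26) and pan3 (poly(A) ribonuclease complex, 0.23). For each of these 6 genes the ranges of the mutants did not overlap, which was so for 445 of all 4913 genes (9.06%). elo2 was read at 159, 131 and 131 CPM in tra1D and at 198, 168 and 183 CPM in tra1-AA, between tra1D and WT, at 233 to 266 CPM. Lower by estimate were thi9 (thiamine transporter, -0.38) and yhb1 (nitric oxide dioxygenase, -0.46), each with an interval within 2-fold.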

How the data were processed

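RNA was measured as read counts per gene. Per the submitters' processing notes, the authors used bcl2fastq, HISAT2 2.1.0 and HTSeq 0.9.1. No source used here gives the genome build, annotation or strand setting, and therefore neither coordinates nor sequences are printed. The authors' deposited DESeq2 tables were not used.

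From the deposited counts (5129 genes, 66 without a count), filterByExpr (minimum count 10, minimum total 15) kept 4913 genes and left out 150 that had counts. All 9 libraries were fitted together in R 4.3.3 by edgeR 4.0.16 (quasi-likelihood, TMM factors), and the contrasts were adjusted by Benjamini-Hochberg over all tested genes. The common biological coefficient of variation was 0.0932. The SE is the absolute log2 fold change divided by the square root of F, and the 95% interval uses the fit's total degrees of freedom. On simulated data of 4905 genes, 95.6% of the intervals of tra1-AA over tra1D held the true value, and 6.44% of calls were false. Library totals were 5738138 to 8101004 counts, and the 3-count limit of a library was 0.379 to 0.503 CPM. Replicates were not copies of each other (chi-square per degree of freedom 8.49 to 29.1).

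Names, roles and neighbours came from RefSeq (5111 IDs matched by locus tag, 3 by an older ID, 15 not matched). Lists numbered 42, and of 703 names in the 33 given by name, 30 were not found. Members and lists were chosen with earlier results of these data known. Named genes were tra1, its 5 neighbours on either side, called genes of the comparison, the 8 largest changes of each mutant against WT in each direction with at least 10 CPM, and others stated to be chosen after their values were seen or given as examples of a list. BLAST 2.17.0 found no near-identical copy (at least 98% identity over 50 bases and 10% of the coding sequence) of the genes named with values by library. Alternatives were RLE factors, library totals, no filter, a mean of at least 5 CPM, DESeq2 1.42.0, limma-voom (limma 3.58.1), a replicate block, a fit of the 6 mutant libraries, each library left out, and a 1.5-fold margin. Per-sample columns left unused numbered 0.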

Additional observations from a re-analysis of the deposited data

How the results depend on the processing

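tra1 and ubc7 were called in all 17 alternatives to the edgeR fit, tra1 at log2 fold changes of 7.14 to 7.996 and ubc7 at -1.52 to -1.41. DESeq2 called 4 genes, 2 higher and 2 lower in tra1-AA. With a library left out, 2 to 5 genes were called, 1 to 2 higher and 1 to 4 lower, with 5 without tra1D replicate 2 (adding rpl102, SPBPB10D8.02c and eno102) and without tra1-AA replicate 2 (adding pfl9, SPBC530.07c and mcs2). Intervals within 2-fold then numbered 4687 to 4760. The set of genes changed at least 2-fold in tra1D against WT held 72 to 97, of which 46 to 65 lay within 2-fold and 2 to 3 were called. That of tra1-AA held 89 to 112, of which 51 to 76 lay within 2-fold and 0 to 2 were called. The cause of these changes was not tested. With the replicate block, 3 genes were called, 2 of them lower, the addition being hsp9 (log2 fold change -0.80, edgeR, BH-adjusted p = 0.0034, in a range of 0.0034 to 1). No pairing by number was seen between the mutants: deviations of same-numbered tra1D and tra1-AA libraries correlated at -0.20, -0.08 and -0.02. For WT and tra1-AA the correlations were 0.11, 0.36 and 0.21, and for WT and tra1D -0.07, -0.12 and -0.01. In all, 4 of 9 libraries correlated best with their own number. Of 745 values of the 44 named genes under the alternatives, 739 kept their direction and side of the threshold, or had no call to lose, and 6 passed it in addition. Only tra1 and ubc7 had a call to lose, so this count says little of the other genes. Among those the direction could change, as for gnr1 (-0.21 to 0.22) and str1 (-0.05 to 0.52). Depth limits genes under 5 CPM, where a 2-fold difference could mostly not be bounded.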

Other observations

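Auxotrophic and other marker genes of laboratory strains stood alike in both mutants. All 12 tested had an interval of tra1-AA over tra1D within 2-fold, with log2 fold changes from -0.06 for arg3 to 0.15 for his5 and a median of 0.04. edgeR called 0 of them, and at an unadjusted p under 0.05 there were 0.

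Of the 150 genes set aside for low counts, 11 had no count in either mutant. The summed counts of the others reached 44 in tra1D and 31 in tra1-AA. For 0 of the 150 did the exact counting interval of the ratio lie wholly beyond 2-fold. With so few counts these intervals were wide, so this does not show that levels were equal. Some intervals left out equality in one or the other direction. Examples are mel1, with 17 counts in tra1D and 3 in tra1-AA, and SPAC1002.20, with 0 and 8. The intervals cover counting error only and were not adjusted over genes.

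Of 13 Tf2 retrotransposon genes in the table, 1 was tested. This gene, Tf2-11, stood at -1.32 on the log2 scale (95% interval -2.80 to 0.15), a value that is uncertain because a near-identical copy covers its coding sequence whole.

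Genes of Hsp90, Hsp70, their cochaperones and other heat shock factors, with the chaperone Hsp90 of PIKK folding among them, numbered 20. Of these, 19 had an interval within 2-fold, the median was 0.05, and the values ran from -0.44 for hsp16 to 0.37 for ssa2. At an unadjusted p under 0.05, 2 were higher in tra1-AA and 0 lower, against 1.87% and 1.93% of all genes, and edgeR called 0.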
